A study of Mus musculus with 9 samples.

Results

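The genes of bile acid synthesis and hepatic bile transport were followed in livers of Wistar rats that drank fructose, with or without an extract of Danggui-Shaoyao-San, a Chinese herbal formula. The set held 10 genes, taken from the count table by gene name: the cytochrome P450 enzymes Cyp7a1, Cyp8b1, Cyp27a1 and Cyp7b1, the conjugating enzymes Slc27a5 and Baat, the nuclear receptors Nr1h4 and Nr0b2, and the transporters Slc10a1 and Abcb11. All 10 were found among the 19686 genes of the table, and all 10 passed the filter on low counts in each of the 3 comparisons.

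Liver mRNA of 9 male rats was sequenced, 1 library from each liver, with 3 rats a group, and the total gene counts lay between 14345819 and 26837227 per library. The control group drank purified water and received saline by gavage for 8 weeks, and the model group drank 15% fructose and received saline for the same time. The DSS group drank 15% fructose and received an extract of the formula made with 50% methanol in water, at 1.8 g/kg by gavage over the 8 weeks. This is the group treated with the extract called HME in the study's methods. All rats fasted before sacrifice, and neither their age, nor the hour of sacrifice, nor how the sequenced rats were picked from each group was given in the sources used here. The labels named the strain as Wistar rat but the organism as mouse, and the gene identifiers of the table were those of rat.

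Bile acids are made from cholesterol in hepatocytes, by a classic pathway that starts with Cyp7a1 and an alternative pathway that starts with Cyp27a1. The bile acid receptor FXR, the product of Nr1h4, lowers synthesis when bile acids accumulate, partly through the repressor SHP, the product of Nr0b2. Conjugated bile acids are pumped into bile by BSEP, the product of Abcb11, and those that return from the gut in portal blood are taken up again by NTCP, the product of Slc10a1.

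Levels are given as CPM, the counts of a gene per 1000000 counts of a library, scaled over the 9 libraries. Differences are log2 fold changes with their standard error (SE) and the adjusted p of edgeR's quasi-likelihood test with Benjamini-Hochberg adjustment over all genes tested. A gene was called up-regulated or down-regulated where its adjusted p was at most 0.01 and its log2 fold change lay 0.5 or more from 0. With 3 rats against 3, an exact permutation test of a single gene cannot give a two-sided p below 0.1, so separation of the rats is described without a p.

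Of the 10 genes, Cyp8b1 was the one that passed these thresholds, in the DSS group against the control group. It was up-regulated there, and its 3 DSS values all lay above its 3 model values, which all lay above its 3 control values. Cyp7a1 and Cyp7b1 had their highest group mean in the control group, without a call in any comparison by edgeR. For each of the remaining 7 genes the highest group mean was at most 1.61 times the lowest.

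Between the model and control groups, 0 of the 10 genes were called, where 0.0801% of the 12486 genes tested were called (10 genes). At an adjusted p of at most 0.05, Cyp8b1 was called, where the share of all genes was 0.601%. Without adjustment, 4 of the 10 genes had p under 0.05 by edgeR, 2 higher and 2 lower in the model group, where the share of all genes was 13.2%. DESeq2 called 2 of the 10, Cyp8b1 and Cyp7b1, where it called 2.05% of all genes. The rats of the 2 groups did not overlap for 4 of the 10 genes, 2 higher and 2 lower in the model group, where the share of all genes was 21.1%.

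Between the DSS and model groups, 0 of the 10 genes were called, where 0.136% of the 12502 genes tested were called (17 genes). The count was again 0 at an adjusted p of at most 0.05, where the share of all genes was 0.456%. Without adjustment, 1 of the 10 genes, Cyp8b1, had p under 0.05 by edgeR, where the share of all genes was 8.02%. DESeq2 called this gene, where it called 1.18% of all genes. The groups did not overlap for 3 of the 10 genes, all higher in the DSS group, where the share of all genes was 14%.

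Between the DSS and control groups, 1 of the 10 genes was called, where 1.48% of the 12633 genes tested were called (187 genes). The count was 2 at an adjusted p of at most 0.05, Cyp8b1 and Slc10a1, where the share of all genes was 6.36%. Without adjustment, 5 of the 10 had p under 0.05 by edgeR, 3 higher and 2 lower in the DSS group, where the share of all genes was 24.3%. DESeq2 called Cyp8b1 and Slc10a1 at the 0.01 threshold, where it called 6.08% of all genes. The groups did not overlap for 6 of the 10 genes, 4 higher and 2 lower in the DSS group, where the share of all genes was 30.2%. The 3 comparisons share their rats, so their results are not independent of each other. The model rats varied most among themselves. Over the 10102 genes with a mean count of at least 50, the median coefficient of variation was 17.5% in the model group. It was 10.9% in the control group and 11.7% in the DSS group. The part of this spread in the numbers of calls was not tested.

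**Figure D1:**
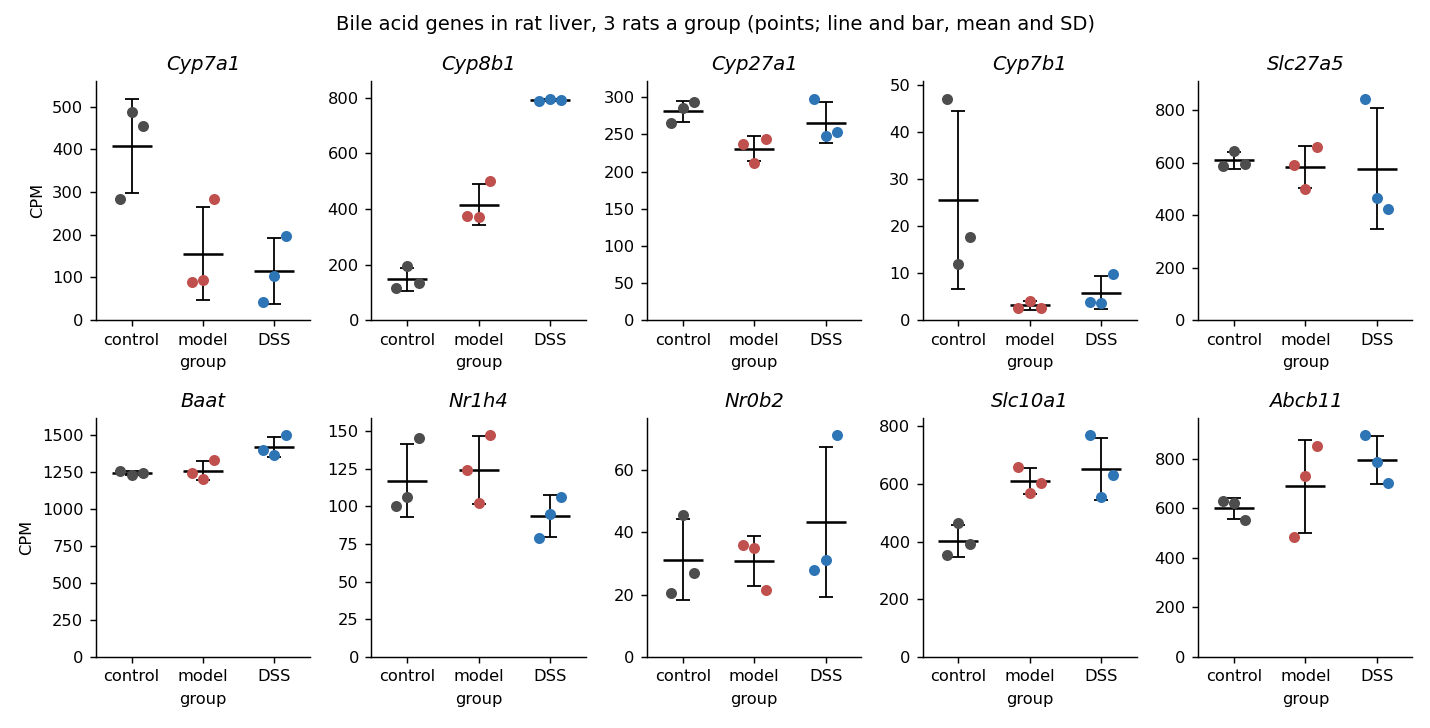
Level of each of the 10 genes (vertical axis, CPM from 0) in each rat of the control, model and DSS groups (points, in the order of the rat numbers), with the group mean and SD (line and bar, 3 rats a group). Cyp8b1 lay between 115 and 193 CPM in control rats, between 371 and 501 in model rats and between 789 and 796 in DSS rats, while Baat lay between 1203 and 1499 CPM in all 9 rats.

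Cyp7a1 (ENSRNOG00000009488), the rate-limiting enzyme of the classic pathway, was at 283, 488 and 454 CPM in control rats 1 to 3. It was at 90.4, 94.3 and 284 CPM in model rats 1 to 3. It was at 43.1, 103 and 198 CPM in DSS rats 1 to 3. Model rat 3 stood apart from the other model rats and reached the lowest control rat, so the control and model groups overlapped by a narrow margin, while all 3 DSS rats lay below all 3 control rats. The DSS and model groups overlapped widely. In liver tissue as a whole, fewer cells of a type and less RNA per cell cannot be told apart, and this holds for every value given here.

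The group mean of Cyp7a1 was highest in the control group (409 ± 110 CPM, SD, n = 3), followed by the model group (156 ± 110) and the DSS group (115 ± 78.0), and the last 2 did not differ beyond their spread. Between groups, the log2 fold change was -1.39 (SE 0.458) in the model against the control group, with an adjusted p of 0.257. It was -1.84 (SE 0.595) in the DSS against the control group, with an adjusted p of 0.142. Between the DSS and model groups it was -0.44 (SE 0.599, adjusted p = 0.9). Model rat 3 set much of the first and last of these values: without it the model group differed from the control group by -2.15, with an adjusted p of 0.0405, and the DSS group differed from the model group by 0.32. No setting brought Cyp7a1 past the threshold in any comparison.

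Cyp8b1 (ENSRNOG00000019481), the sterol 12-alpha-hydroxylase that directs the classic pathway to cholic acid, was at 115, 193 and 132 CPM in control rats 1 to 3. It was at 373, 371 and 501 CPM in model rats 1 to 3. It was at 789, 796 and 793 CPM in DSS rats 1 to 3. The 3 groups did not overlap at any point, and the DSS rats were nearly equal, with a coefficient of variation of 0.45%, where the median over the 10102 genes with a mean count of at least 50 was 11.7% in this group.

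The Cyp8b1 mean was 5.41 times as high in the DSS group as in the control group and 2.83 times as high in the model group as in the control group. On the log2 scale the DSS group exceeded the control group by 2.43 (SE 0.193), with an adjusted p of 0.000367 by edgeR. This call was kept in all 6 fits that left out 1 rat, with an adjusted p between 0.000147 and 0.00353, and under all other settings. The model group exceeded the control group by 1.50 (SE 0.227, adjusted p = 0.0307), which missed the threshold of 0.01. This difference passed the threshold with DESeq2 (1.61e-07), without a filter on low counts (0.00157) and in 1 fit of all 9 libraries (0.00924). Its adjusted p by edgeR lay between 0.0461 and 0.137 without 1 rat, and was up to 0.114 under the other settings, so it did not always stay under 0.05. The DSS group exceeded the model group by 0.94 (SE 0.164, adjusted p = 0.071), and only DESeq2 brought this past the threshold (2.96e-05).

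Reads of Cyp8b1 over reads of Cyp7a1 give a ratio within 1 library, into which no scaling between libraries enters. It was 0.406, 0.396 and 0.29 in control rats 1 to 3. It was 4.13, 3.94 and 1.77 in model rats 1 to 3. It was 18.3, 7.76 and 4.01 in DSS rats 1 to 3. All 6 rats on fructose lay above all 3 control rats, while DSS rat 3 lay just below model rat 1, so those 2 groups overlapped. In all, 4 ratios were computed. Cyp8b1 over Cyp27a1 set all 3 groups apart, at 0.434 to 0.677 in control, 1.57 to 2.05 in model and 2.65 to 3.21 in DSS rats. Cyp7b1 over Cyp27a1 was lower in all 6 rats on fructose (at most 0.0389) than in control rats (at least 0.0416), and Cyp7b1 over Cyp7a1 overlapped between all groups. The ratios were chosen after the values had been seen and are given without a test. The ratio of Cyp8b1 over Cyp7a1 does not compare the levels of the 2 mRNAs, since the counts were not divided by gene length.

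**Figure D2:**
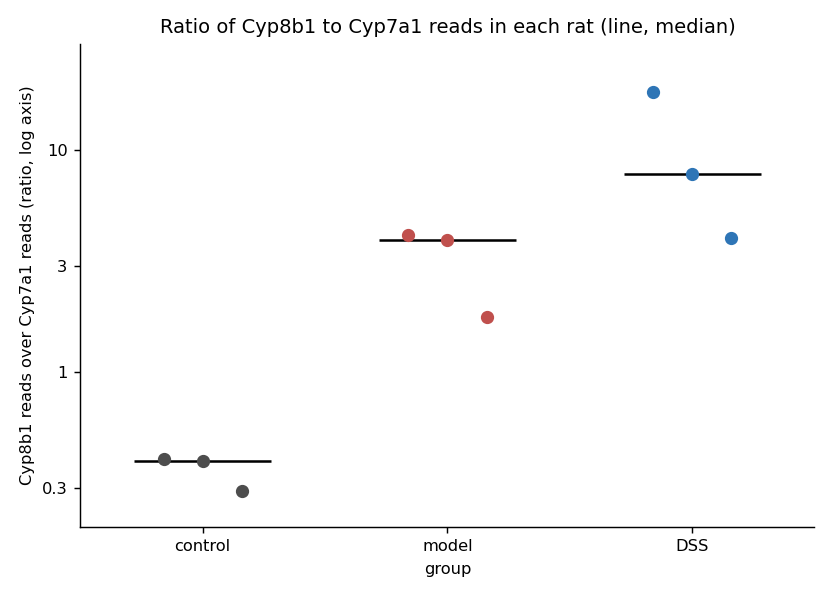
Reads of Cyp8b1 divided by reads of Cyp7a1 in each rat (points, log axis, no unit), in the control, model and DSS groups, with the group median (line). The medians were 0.396, 3.94 and 7.76, and the highest control rat (0.406) lay below the lowest rat on fructose (1.77).

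Cyp27a1 (ENSRNOG00000017188), the mitochondrial sterol 27-hydroxylase, was at 265, 286 and 293 CPM in control rats 1 to 3. It was at 237, 211 and 244 CPM in model rats 1 to 3. It was at 298, 248 and 253 CPM in DSS rats 1 to 3. All model rats lay below all rats of both other groups, which overlapped. The model group differed from the control group by a log2 fold change of -0.28 (SE 0.133, adjusted p = 0.416), under the fold threshold, or -0.43 with library size alone. It was 0.21 (adjusted p = 0.804) in the DSS against the model group, between 0.12 and 0.26 without 1 rat. Against the control group the DSS group had -0.08 (adjusted p = 0.728), between -0.17 and -0.03 without 1 rat and -0.21 with library size alone.

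Cyp7b1 (ENSRNOG00000009730), the oxysterol 7-alpha-hydroxylase that follows Cyp27a1, was at 47.1, 11.9 and 17.6 CPM in control rats 1 to 3. It was at 2.57, 4.12 and 2.65 CPM in model rats 1 to 3, from 60, 64 and 43 counts. It was at 3.92, 3.67 and 9.82 CPM in DSS rats 1 to 3. Control rat 1 was far above the other control rats, and all 6 rats on fructose lay below all 3 control rats. The DSS and model groups overlapped.

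The control mean of Cyp7b1 was 8.2 times the model mean, the widest gap between group means among the 10 genes. This gap was a log2 fold change of -3.05 (SE 0.525), with an adjusted p of 0.0597. DESeq2 gave an adjusted p of 9.91e-09, which is past the threshold, while in the edgeR fits without 1 rat the adjusted p lay between 0.0536 and 0.198. Without control rat 1 the difference was -2.25. It was -2.14 (SE 0.707, adjusted p = 0.151) in the DSS against the control group, or -1.34 without control rat 1. Between the DSS and model groups it was 0.91 (adjusted p = 0.659), or 0.30 without DSS rat 3.

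Slc27a5 (ENSRNOG00000019626), the bile acyl-CoA synthetase that activates bile acids for conjugation, lay between 586 and 644 CPM in control rats and between 501 and 660 CPM in model rats. In DSS rats 1 to 3 it was at 843, 465 and 423 CPM, so that DSS rat 1 lay above and DSS rats 2 and 3 below all 6 other rats. Over the 3 comparisons the log2 fold change lay between -0.08 and -0.01, and the adjusted p was at least 0.879.

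Baat (ENSRNOG00000007395), the enzyme that joins bile acids to taurine or glycine, lay between 1233 and 1257 CPM in control rats, between 1203 and 1330 in model rats and between 1367 and 1499 in DSS rats. All DSS rats lay above all rats of the other groups, but the differences were small, with a log2 fold change of 0.19 (SE 0.113, adjusted p = 0.343) in the DSS against the control group, or 0.05 with library size alone. It was 0.18 (adjusted p = 0.83) in the DSS against the model group. Baat varied least within the control group among the 10 genes, with a coefficient of variation of 0.996%.

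Nr1h4 (ENSRNOG00000007197), which encodes FXR, was at 100, 106 and 145 CPM in control rats 1 to 3. It was at 124, 102 and 147 CPM in model rats 1 to 3. It was at 78.7, 95.0 and 106 CPM in DSS rats 1 to 3. The DSS group had the lowest mean, but the groups overlapped in all comparisons. Its log2 fold change was -0.41 (adjusted p = 0.644) in the DSS against the model group, between -0.54 and -0.26 without 1 rat. It was -0.33 (adjusted p = 0.27) in the DSS against the control group, between -0.43 and -0.14 without 1 rat.

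Nr0b2 (ENSRNOG00000007229), which encodes SHP, was at 20.6, 45.6 and 27.0 CPM in control rats 1 to 3. It was at 35.9, 35.0 and 21.5 CPM in model rats 1 to 3. It was at 27.8, 31.0 and 71.1 CPM in DSS rats 1 to 3. The groups overlapped, and DSS rat 3 alone was high. The log2 fold change of 0.48 in the DSS against the control group (adjusted p = 0.613) became -0.07 without DSS rat 3, and that of 0.50 in the DSS against the model group (adjusted p = 0.828) became -0.06.

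Slc10a1 (ENSRNOG00000005794), the sodium-dependent uptake carrier NTCP, was at 354, 464 and 392 CPM in control rats 1 to 3. It was at 658, 569 and 604 CPM in model rats 1 to 3. It was at 768, 554 and 631 CPM in DSS rats 1 to 3. All 6 rats on fructose lay above all 3 control rats, and the model and DSS groups overlapped. Its log2 fold change was 0.60 (SE 0.156, adjusted p = 0.146) in the model against the control group. It was 0.69 (adjusted p = 0.0341) in the DSS against the control group, which missed the threshold by edgeR but passed it with DESeq2 (0.00127) and without a filter on low counts (0.00645). The adjusted p of this value by edgeR lay between 0.0292 and 0.113 without 1 rat, and was up to 0.0897 under the other settings, so it did not always stay under 0.05.

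Abcb11 (ENSRNOG00000050860), the canalicular bile salt export pump BSEP, was at 628, 621 and 552 CPM in control rats 1 to 3. It was at 485, 731 and 851 CPM in model rats 1 to 3. It was at 895, 789 and 702 CPM in DSS rats 1 to 3. All DSS rats lay above all control rats, while model rat 1 lay below all control rats and model rats 2 and 3 lay within the DSS range. The log2 fold change was 0.40 (SE 0.13, adjusted p = 0.0943) in the DSS against the control group, 0.20 (adjusted p = 0.729) in the model against the control group and 0.21 (adjusted p = 0.87) in the DSS against the model group. Without 1 rat the second of these lay between 0.016 and 0.38, and the third between 0.016 and 0.40.

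**Figure D3:**
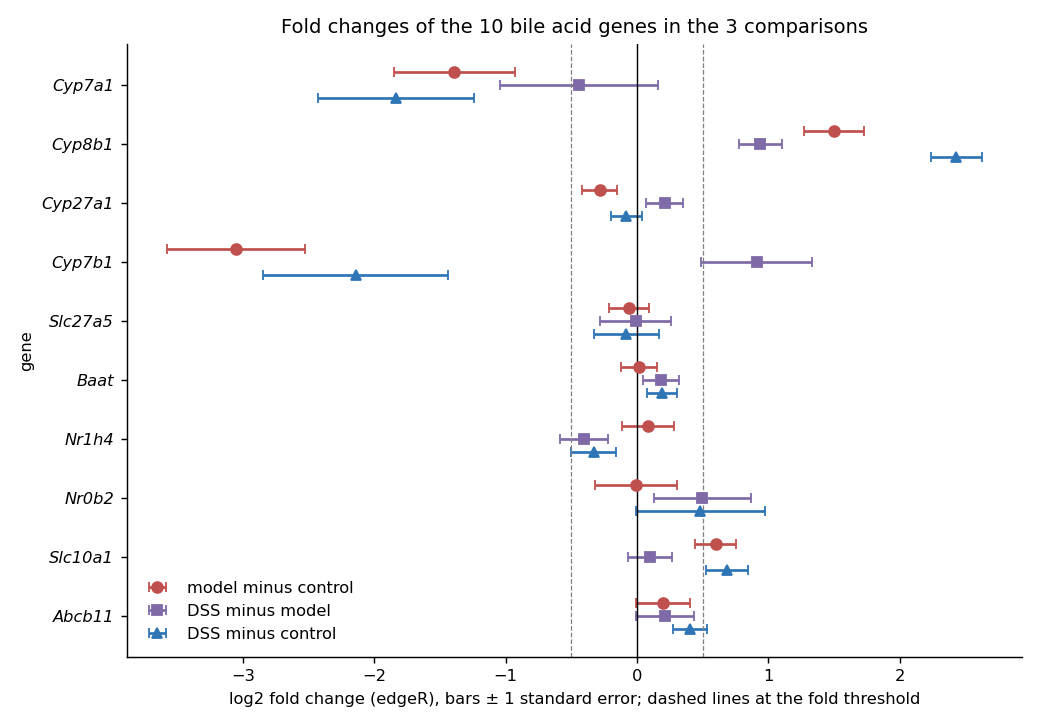
Log2 fold change of the 10 genes (horizontal axis, points) with its SE (bars) by edgeR in the model against the control group, the DSS against the model group and the DSS against the control group, with dashed lines at 0.5 above and below 0. Cyp8b1 was above 0 in all 3 comparisons (1.50, 0.94 and 2.43), and Cyp7b1 had the lowest value (-3.05, model against control).

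Within the model group, rat 3 had the highest value of 7 of the 10 genes and the lowest of 1, and rat 2 had the lowest of 6. Within the DSS group, rat 3 had the highest value of 5 genes, Cyp7a1, Cyp7b1, Nr1h4, Nr0b2 and Baat. DSS rat 1 had the highest value of 4, Cyp27a1, Slc27a5, Slc10a1 and Abcb11, and the lowest of 4, Cyp7a1, Cyp8b1, Nr1h4 and Nr0b2. Within the control group, rat 1 had the lowest value of 7 of the 10 genes, Cyp7a1 and Cyp8b1 among them, and the highest of the other 3, Cyp7b1, Abcb11 and Baat. The median log2 fold change of the 10 genes was 0.00 in the model against the control group, 0.20 in the DSS against the model group and 0.05 in the DSS against the control group, where the medians of all genes tested lay between -0.01 and 0.00.

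For Cyp7a1, Cyp8b1 and Cyp7b1, whose highest group mean was at least 2 times their lowest, the genes with the most similar course over the 9 libraries were sought. Likeness was the root mean square difference of log2(CPM + 1), each gene centred on its own mean, over 10101 other genes. For Cyp7a1 the nearest were Bhlha15 (0.397), the transferrin receptor gene Tfrc (0.528) and Pfkfb1 (0.589), which encodes the liver form of the enzyme that sets fructose 2,6-bisphosphate. For Cyp8b1 they were Rab30 (0.379), the glycerol kinase gene Gk (0.401) and Amdhd1 (0.402), a gene of histidine breakdown. For Cyp7b1 they were the cell cycle kinase gene Wee1 (0.591), Usp2 (0.597) and Mcm6 (0.611).

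These neighbours show the same order of groups. Tfrc had group means of 144 CPM in control, 66.5 in model and 42.1 in DSS rats. Gk had group means of 114 CPM in control, 583 in model and 647 in DSS rats. Wee1 had group means of 11.6 CPM in control, 1.81 in model and 2.27 in DSS rats. They were picked for their likeness, so these values are a description.

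Of 13 other enzymes of bile acid synthesis found in the table, 11 were tested. None was called at the 0.01 threshold by edgeR in any comparison, while DESeq2 called 1 in the model against the control group, 0 in the DSS against the model group and 2 in the DSS against the control group. Without adjustment, p was under 0.05 for 2 in the model against the control group, both higher, for 2 in the DSS against the model group, 1 in each direction, and for 6 in the DSS against the control group, 4 higher and 2 lower. The shares of all genes were 13.2%, 8.02% and 24.3% for this p, and 2.05%, 1.18% and 6.08% for calls by DESeq2. Hsd3b7, which acts just after the 7-alpha-hydroxylases, was at 112, 123 and 144 CPM in control rats and 199, 206 and 215 CPM in model rats, with no overlap. Its log2 fold change was 0.71 (SE 0.14), with an adjusted p of 0.0836 by edgeR, and 0.000978 with DESeq2. At the 0.05 level in the DSS against the control group, Slc27a2, a very long-chain acyl-CoA synthetase, was higher by 0.58 (adjusted p = 0.0401), and Cyp39a1, a 7-alpha-hydroxylase of 24-hydroxycholesterol, had a log2 fold change of -0.55 (adjusted p = 0.0303). Amacr, the racemase of side chain shortening, had the highest log2 fold change of this list in that comparison, 0.78, with overlapping groups (adjusted p = 0.289), and lay between 0.41 and 1.14 without 1 rat.

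Beside Slc10a1, 5 organic anion carriers of the Slco family take up bile acids and other anions at the sinusoidal membrane. Of these, 1 was called in the DSS against the control group, Slco1b2, where the share of all genes was 1.48%. All 5 had log2 fold changes above 0 in that comparison, where 6200 of the 12633 genes tested were above 0. Slco1b2 was at 455, 391 and 310 CPM in control rats, 571, 748 and 986 in model rats and 1107, 766 and 928 in DSS rats, so all 6 rats on fructose lay above the control rats. Its log2 fold change was 1.27 (SE 0.181, adjusted p = 0.00532) in the DSS against the control group and 0.99 (adjusted p = 0.116) in the model against the control group. DESeq2 called it in both of these comparisons. The edgeR call in the DSS against the control group rested near the threshold: it was lost without control rat 1 (0.0108), control rat 2 (0.025), control rat 3 (0.0173), DSS rat 1 (0.0186) or DSS rat 3 (0.0188), with library size alone (0.012) and in 1 fit of all 9 libraries (0.0147).

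Slco1a1 was at 235, 223 and 205 CPM in control rats, 179, 272 and 285 in model rats and 406, 332 and 323 in DSS rats. All DSS rats lay above all other rats. The log2 fold change was 0.67 (adjusted p = 0.0176) in the DSS against the control group and 0.53 (adjusted p = 0.556) in the DSS against the model group, the latter between 0.35 and 0.66 without 1 rat. DESeq2 called Slco1a1 in the DSS against the control group (5.67e-05). Slco1a2 had the highest log2 fold change of the list in both comparisons with the control group, 1.16 and 1.54, but at no more than 1.41 CPM in any rat and with overlapping groups, and the first was up to 1.88 without 1 rat. The Slco1a genes resemble each other in sequence, and reads that could come from more than 1 of them make their separate counts uncertain.

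Of the other genes of canalicular export, 7 were found and tested. All 7 had log2 fold changes above 0 in the DSS against the model group, where 6267 of the 12502 genes tested were above 0. The 2 that were called there, both up-regulated, were Abcg5 and Abcg8, which form the sterol exporter of the canalicular membrane. The share of all genes called in that comparison was 0.136%. Abcg5 was at 14.6, 5.55 and 7.93 CPM in control rats, 0.685, 0.772 and 0.617 in model rats and 75.1, 31.6 and 39.8 in DSS rats. Abcg8 was at 10.9, 3.05 and 3.8 CPM in control rats, 0.214, 0.129 and 0.494 in model rats and 40.9, 20.3 and 25.1 in DSS rats. For both genes the 3 groups were fully apart, with the model group lowest and the DSS group highest.

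Abcg5 rose in the DSS against the model group by a log2 fold change of 6.14 (SE 0.41, adjusted p = 0.00163). Abcg8 rose by 6.69 (SE 0.457, adjusted p = 0.00163). The model libraries held 16, 12 and 10 counts of Abcg5 and 5, 2 and 8 counts of Abcg8, so the size of these folds rests on few reads. The call of Abcg5 was lost without model rat 1 (0.0327) or model rat 3 (0.0137), and that of Abcg8 without model rat 1 (0.0214). The values of the model against the control group were -3.75 for Abcg5 (adjusted p = 0.0118) and -4.41 for Abcg8 (adjusted p = 0.0331), and DESeq2 called both. Those of the DSS against the control group were 2.36 for Abcg5 (adjusted p = 0.0514), the highest of this list, and 2.24 for Abcg8 (adjusted p = 0.0795). DESeq2 called both there too, and a replicate block called Abcg5 (0.000336).

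Abcb4, the phospholipid exporter, was at 68.3, 93.7 and 78.1 CPM in control rats, 80.0, 115 and 148 in model rats and 201, 131 and 144 in DSS rats. The DSS rats lay above the control rats, with a log2 fold change of 0.98 (adjusted p = 0.0185), and overlapped the model rats. It had the highest value of this list in the model against the control group, 0.51 (adjusted p = 0.382), between 0.28 and 0.70 without 1 rat. Abcc2, the exporter MRP2 of conjugated anions, was at 616, 408 and 343 CPM in control rats, 161, 340 and 363 in model rats and 999, 959 and 597 in DSS rats. Its log2 fold change was 1.57 (adjusted p = 0.141) in the DSS against the model group, with no overlap, and DESeq2 called it (0.000157). The model group differed from the control group by -0.67 (adjusted p = 0.442), with overlap, between -0.87 and -0.38 without 1 rat.

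**Figure D4:**
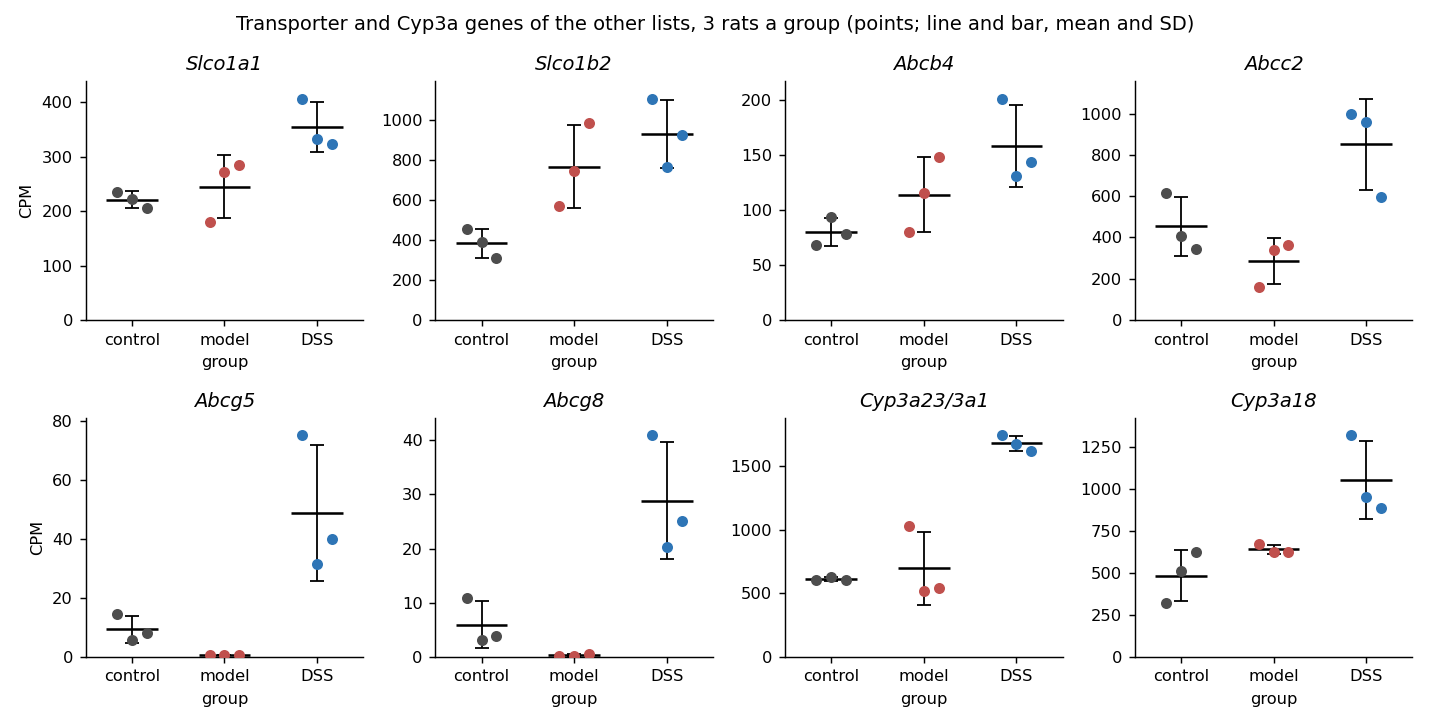
Level of 8 genes of the uptake, export and detoxification lists (vertical axis, CPM from 0) in each rat of the control, model and DSS groups (points, in the order of the rat numbers), with the group mean and SD (line and bar, 3 rats a group). Abcg5 lay between 0.617 and 0.772 CPM in model rats and between 31.6 and 75.1 CPM in DSS rats, and Cyp3a23/3a1 lay between 520 and 1024 CPM in model rats and between 1619 and 1739 CPM in DSS rats.

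Of 4 genes listed for export back into blood, 3 were found. Abcc3, which encodes MRP3, lay between 1.4 and 8.58 CPM over the 9 rats, and its log2 fold change was 1.38 (adjusted p = 0.486) in the DSS against the model group and 1.23 (adjusted p = 0.164) in the DSS against the control group. Without 1 rat these were as small as 0.79 and 0.65. Abcc4, which encodes MRP4, lay between 5.82 and 12.1 CPM, with -0.52 (adjusted p = 0.395) in the model against the control group, between -0.78 and -0.36 without 1 rat. Slc51a did not exceed 0.309 CPM in any rat. Of the ileal genes of the bile acid cycle, Slc10a2 was the one found, at 1.17 to 3.86 CPM.

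Of 21 other regulators found, 19 were tested, and none was called by edgeR in any comparison, also not at an adjusted p of 0.05. DESeq2 called 1, Onecut1, in the model against the control group and 0 in the others. Without adjustment, p was under 0.05 for 6 in the model against the control group, 3 in each direction, for 1 in the DSS against the model group, which was higher, and for 6 in the DSS against the control group, 4 higher and 2 lower. The shares of all genes were 13.2%, 8.02% and 24.3% for this p, and 2.05%, 1.18% and 6.08% for calls by DESeq2. Onecut1, which encodes the hepatocyte factor HNF6, had the largest differences. It was at 17.1, 6.57 and 30.8 CPM in control rats, 1.58, 3.67 and 4.26 in model rats and 33.8, 49.5 and 4.24 in DSS rats. All model rats lay below all control rats, with a log2 fold change of -2.54 (adjusted p = 0.117, or 6.75e-05 with DESeq2), whereas DSS rat 3 lay among the model rats and the other DSS rats above all others, with 3.23 (adjusted p = 0.254) in the DSS against the model group. The highest value of the DSS against the control group was that of Foxa2, 1.01 (adjusted p = 0.309), which rested on DSS rat 1 and was 0.25 without it.

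Among 10 genes known as targets of FXR, 9 were tested, and none was called at the 0.01 threshold by edgeR, while DESeq2 called 0 in the model against the control group, 1 in the DSS against the model group and 3 in the DSS against the control group. All 9 had log2 fold changes above 0 in the DSS against the control group, where 6200 of the 12633 genes tested were above 0. Their median was 0.36, where the median of all genes tested was -0.01. At the 0.05 level 2 passed, Abcb4 and Apoc2, where the share of all genes was 6.36%. The 10 members, Nr0b2 and Abcb11 among them, were not on this list. All 9 were also above 0 in the DSS against the model group, with a median of 0.11, where 6267 of the 12502 genes tested were above 0. In the model against the control group 8 of the 9 were above 0, with a median of 0.22, where 6227 of the 12486 genes tested were above 0. Apoc2, an apolipoprotein that activates lipoprotein lipase, was at 397, 510 and 518 CPM in control rats and 750, 651 and 836 in DSS rats, with 0.65 (adjusted p = 0.0373). In model rats it was at 1015, 599 and 556 CPM, all above the control rats, with 0.61 (adjusted p = 0.349), or as little as 0.26 without 1 rat. Without adjustment, p was under 0.05 for 5 of the 9 in the DSS against the control group and for 1 in each of the other comparisons. The shares of all genes in the model against control, DSS against model and DSS against control comparisons were 13.2%, 8.02% and 24.3%. By DESeq2 they were 2.05%, 1.18% and 6.08%. Abcb4, Abcc2, Mafg and Slc51a stand in other lists too.

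Bile acids are also hydroxylated by enzymes of the Cyp3a family, whose copies are so alike that reads can be shared between them. Of the 5 genes of detoxification tested, 1 was called in the DSS against the control group, where the share of all genes was 1.48%. This gene was Cyp3a23/3a1. It was at 603, 630 and 607 CPM in control rats, 1024, 520 and 540 in model rats and 1739, 1670 and 1619 in DSS rats. It was up-regulated in the DSS against the control group, by 1.45 on the log2 scale (SE 0.113, adjusted p = 0.000325), and this call was kept in all 6 fits without 1 rat. Against the model group its value was 1.28 (adjusted p = 0.141), and without model rat 1, the high one of that group, 1.67 with an adjusted p of 0.00635. DESeq2 called it against the model group with all rats kept (0.000387).

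Cyp3a18 was at 319, 510 and 624 CPM in control rats, 673, 625 and 626 in model rats and 1320, 953 and 889 in DSS rats. The 3 groups were apart, though the control and model groups only by a narrow margin, and the log2 fold change was 1.12 (adjusted p = 0.0438) in the DSS against the control group. Cyp3a62, at 2.45 to 19.7 CPM over the 9 rats, had 2.23 (adjusted p = 0.0147) in the DSS against the control group and 1.32 (adjusted p = 0.295) in the model against the control group, the latter between 0.75 and 1.81 without 1 rat. In the DSS against the control group DESeq2 called both Cyp3a18 (0.000134) and Cyp3a62 (1.84e-09).

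Cyp7a1 is known as a gene with a daily rhythm, so factors of the circadian clock were read as well. Of 16 clock factors tested, 1 was called in the model against the control group, 0 in the DSS against the model group and 4 in the DSS against the control group, by edgeR. The shares of all genes were 0.0801%, 0.136% and 1.48%. Without adjustment, p was under 0.05 for 9, 6 and 11 of the 16 in these comparisons, where the shares of all genes were 13.2%, 8.02% and 24.3%. DESeq2 called 4, 3 and 10, where it called 2.05%, 1.18% and 6.08% of all genes. Per2 was at 80.3, 89.4 and 75.1 CPM in control rats, 14.4, 17.1 and 12.6 in model rats and 15.3, 14.8 and 14.3 in DSS rats. It was down-regulated in both groups on fructose, with log2 fold changes of -2.48 (adjusted p = 0.00176) in the model and -2.46 (adjusted p = 1.87e-05) in the DSS against the control group. The first of these calls was lost without control rat 1 (0.0234), control rat 2 (0.0117) or control rat 3 (0.0171), and with a replicate block (0.0249).

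Cry1 (-2.63, adjusted p = 0.000289) was also down-regulated in the DSS against the control group. Npas2 was up-regulated there (2.59, adjusted p = 0.00373), a call lost without control rat 1 (0.0185), control rat 3 (0.0143), DSS rat 1 (0.0116) or DSS rat 3 (0.0115). Its value in the model against the control group was 3.92 (adjusted p = 0.0111). At the 0.05 level, Nr1d1 (4.12, adjusted p = 0.0111) and Nr1d2 (1.15, adjusted p = 0.0351) were higher and Hlf (-1.22, adjusted p = 0.0169) lower in the DSS than in the control group. Nr1d1 had the highest value of the list in the DSS against the model group, 1.26 (adjusted p = 0.626), which was 2.26 without model rat 2 (adjusted p = 0.0447) and 0.84 without model rat 1. Cry1 had the lowest, -1.51 (adjusted p = 0.141). The part of the clock in the values of Cyp7a1 and the other bile acid genes was not tested.

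The markers of cell types bore on the labelled tissue. All 10 hepatocyte markers were found, and their summed level lay between 139975 and 224970 CPM, of which Alb was the most abundant gene. None of them was called by edgeR at the 0.01 threshold, but at the 0.05 level Apoa1 was higher in the DSS than in the control group (0.81, adjusted p = 0.0205), and DESeq2 called it. Without adjustment, p was under 0.05 for 4 of the 10 in the model against the control group, 1 in the DSS against the model group and 4 in the DSS against the control group, where DESeq2 called 1, 0 and 1. The shares of all genes were 13.2%, 8.02% and 24.3% for this p, and 2.05%, 1.18% and 6.08% by DESeq2. All 8 bile duct markers summed to between 16.4 and 35.3 CPM, with Epcam the most abundant and Krt7 at 0 in all 3 DSS rats and control rat 3. Of the 9 markers of leukocytes and Kupffer cells, 7 were tested in the model against the control group and all 7 had log2 fold changes below 0, though none was called by edgeR or DESeq2, 1 had p under 0.05 without adjustment, and all 7 overlapped between the groups. All 5 endothelial and all 6 stellate markers also had log2 fold changes below 0 in this comparison, where 6259 of the 12486 genes tested were below 0. None of these endothelial and stellate markers was called by edgeR or DESeq2. All 5 endothelial and 5 of the 6 stellate markers overlapped between the groups. Of the leukocyte and Kupffer markers tested in the DSS against the control group, 7 of 8 were below 0, with a median of -0.31. In that comparison 6433 of the 12633 genes tested were below 0. None of the 8 was called by edgeR or DESeq2, and 1 had p under 0.05 without adjustment. The sum of the leukocyte and Kupffer markers was 529, 236 and 321 CPM in control rats 1 to 3, with Clec4f the most abundant. It was 258, 385 and 167 CPM in model rats 1 to 3, and 281, 246 and 325 CPM in DSS rats 1 to 3. The sum of the 5 endothelial markers was 106, 258 and 92.6 CPM in model rats 1 to 3, within which the highest was model rat 2, and it lay between 138 and 225 CPM in the other rats, with Kdr the most abundant. The 6 stellate markers summed to 62.0 to 115 CPM, with Reln the most abundant and model rat 2 highest. The 5 red blood cell markers summed to 200 to 721 CPM, with Hbb the most abundant and control rat 3 highest.

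Zones of the lobule differ in bile acid synthesis, which is strongest near the central vein. The sum of the 10 pericentral markers was 2970, 3233 and 3531 CPM in control rats 1 to 3, with Cyp2e1 the most abundant. It was 2443, 2437 and 2203 CPM in model rats 1 to 3, and 4269, 3122 and 3170 CPM in DSS rats 1 to 3. The model group was thus the lowest, without overlap, in a sum to which Cyp2e1 alone gave 1181, 1241 and 1112 CPM in model rats. The single markers went both ways, with 4 of the 10 above 0 and 6 below 0 in the model against the control group. Glul was among those above 0, at 464, 682 and 566 CPM in model rats against 286, 363 and 451 CPM in control rats. None of the markers of zones was called by edgeR in any comparison at the 0.01 threshold. Between the model and control groups, p without adjustment was under 0.05 for 5 of the 10 pericentral markers, 2 higher and 3 lower, and DESeq2 called 2, both lower. It was under 0.05 for 7 of the 10 periportal markers, 2 higher and 5 lower, and DESeq2 called 5, 1 higher and 4 lower. The shares of all genes in this comparison were 13.2% with p under 0.05 and 2.05% called by DESeq2. For the DSS against the model group the counts were 2 of 9 pericentral and 5 of 10 periportal markers, and DESeq2 called 1 of each. The shares of all genes were 8.02% and 1.18%. For the DSS against the control group the counts were 3 of 9 pericentral and 5 of 10 periportal markers, and DESeq2 called 1 and 3. In this comparison the shares of all genes were 24.3% and 6.08%. Ass1, a periportal gene, passed the 0.05 level there (-0.84, adjusted p = 0.0202). The part of cell types and zones in the values of the bile acid genes was not tested.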

How the data were processed

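Poly(A) mRNA of 9 rat livers was sequenced on an Illumina platform. The authors deposited raw counts per gene; per the submitters' processing notes and the methods, reads were aligned with HISAT2 to Rnor_6.0 and counted with HTSeq 0.6.1 without regard to strand, so reads of overlapping and antisense genes cannot be told apart. A second table, of newly assembled transcripts in a unit that was not stated, was not used here. Members were matched by gene name, and 11 symbols of the lists had no match. Members and lists were chosen with earlier results of these data known.

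Each comparison was fitted on its 6 libraries with edgeR 4.0.16 in R 4.3.3 (default filter on low counts, TMM scaling, robust quasi-likelihood fit, two-sided test, Benjamini-Hochberg adjustment over all genes tested), after a check on simulated counts. Adjusted p-values in the text are from edgeR unless DESeq2 (1.42.0) is named. They weigh a difference between groups against the spread of 3 rats a group, where the estimate of spread borrows from all genes. Outside the members, not every gene is named; those named reached an absolute log2 fold change of 0.5 with an adjusted p of at most 0.05, or had the highest or lowest value of their list in a comparison; such extremes below 0.5 are not named. Also named are the most abundant gene of a marker list, the genes nearest in course to a member, and genes of more than 1 list. Glul, Krt7, Slc51a and Slc10a2 were named after their values were seen. Alternatives were other scalings (DESeq2 size factors, library size alone), no filter, at least 10 counts in every library, DESeq2, 1 fit of all 9 libraries, a replicate block and leaving out each rat. For genes outside the members, and for counts over all genes, they were added after seeing the data. Of these, only DESeq2 is given for marker genes. Tables and figures were made with pandas 2.3.3 and matplotlib 3.10.9.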

Additional observations from a re-analysis of the deposited data

How the results depend on the processing

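Limits: with 3 rats a group a single rat can carry a value, and reads per gene were counted without strand or length. Of 10 genes, the number called in the model against the control group was 0, and became 1 without a filter, in 1 fit of all 9 libraries and at an adjusted p of 0.05, and 2 with DESeq2. Between the DSS and model groups it was 0, and 1 with DESeq2. Between the DSS and control groups it was 1, and 2 without a filter, with DESeq2 and at an adjusted p of 0.05. Leaving out any 1 rat changed none of these 3 counts. The cause of the other changes was not tested, except that the 0.05 level is the wider threshold. Outside the leave-outs, 199 of 210 values of the 10 genes kept their direction and their side of the threshold, 7 passed it and 4 turned their sign. With library size alone, which moved the median of all genes by -0.145 in the model and -0.144 in the DSS against the control group, the values of Nr1h4 (-0.059) and Baat (-0.13) in the model against the control group and of Slc27a5 (0.0017) in the DSS against the model group turned.

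In the 180 leave-outs of the 10 genes 15 signs turned, all of values that were not called. In the model against the control group, Nr1h4 ranged from -0.053 to 0.27, Nr0b2 from -0.24 to 0.38, Baat from -0.022 to 0.048 and Slc27a5 from -0.16 to 0.037. In the DSS against the model group, Cyp7a1 ranged from -1.09 to 0.32, Nr0b2 from -0.059 to 0.73, Slc10a1 from -0.041 to 0.20 and Slc27a5 from -0.39 to 0.17. In the DSS against the control group, Nr0b2 ranged from -0.068 to 0.87 and Slc27a5 from -0.45 to 0.11.

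Genes called in all, 10 in the model against the control group, were 256 with DESeq2, 71 without a filter, 25 in 1 fit of all 9 libraries, and between 0 and 10 without 1 rat. The 17 of the DSS against the model group became 147 with DESeq2, 38 without a filter, 11 with library size alone, and between 2 and 12 without 1 rat. The 187 of the DSS against the control group became 768 with DESeq2, 489 without a filter, 113 in 1 fit of all 9 libraries, and between 86 and 132 without 1 rat. Rats with the same number did not deviate together (correlations from -0.26 to -0.012). These correlations were not tested, so they give no sign of a pairing by number but cannot exclude one. A replicate block gave 0, 7 and 104 genes called in the 3 comparisons, left the counts of the 10 genes at 0, 0 and 1, and turned Nr0b2 in the model against the control group to 0.028.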
